A study of Mus musculus with 24 samples.

Results

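The hydroxysteroid sulfotransferases of the Sult2a family and their relative Sult3a1 were measured in mouse liver with 12 array probes for 9 genes (Sult2a1 to Sult2a8 and Sult3a1), of 27195 genes named on the array. Members were chosen by gene name, or by an older name or accession of the same gene, among probes that are not controls. 11 of the 12 probes passed the filter on dim probes and were tested among 32078.

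These enzymes sit in the cytosol and move a sulfo group from the donor PAPS onto a hydroxyl group of a steroid, such as dehydroepiandrosterone, or of a bile acid, which makes the product more water-soluble and easier to excrete. Sult3a1 is known as an amine sulfotransferase. In mouse liver Sult2a1 and its close copies and Sult3a1 are textbook examples of genes with far higher levels in females than in males, under control of the sex-specific rhythm of growth hormone release.

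RNA from C57BL/6J liver was hybridised to 24 one-colour arrays in 4 labelled groups of 6: male control diet, female control diet, male pesticide diet and female pesticide diet. According to the labels the mice arrived when 8 weeks old, had 2 weeks to settle, ate their diet for 52 weeks and were 68 weeks old, figures that do not add up and were not resolved here; the pesticide diet held a cocktail of pesticides at acceptable daily intake levels. No allele or transgene is named. The labels number 6 livers per group without naming the mice, and the p-values therefore reflect only how far these samples spread, which could be technical.

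Sex-linked transcripts did not follow the sex labels. Xist, the RNA that silences an X chromosome in females, was well above background on 12 of 12 arrays labelled pesticide and on 0 of 12 labelled control. Eif2s3y, Ddx3y, Kdm5d and Uty, all on the Y chromosome, were well above background on all 12 arrays labelled control, and none of these 4 genes was on any array labelled pesticide. Thus 12 arrays, those labelled female control and male pesticide, went against their sex label. On every array the labelled diet coincided with the sex-chromosome transcripts, so the labelled diet and the sex read from the transcripts cannot be told apart in any comparison here, and groups are named below by their labels only. The scanner marked 29935 to 39032 probes on each array as well above background, the median signal was 63 to 109, and 0 spots were saturated. The hepatocyte markers were present at a mean log2 signal of 16.88 to 17.13 in all groups.

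The Sult2a genes are near copies of one another, so the probe sequences set how far a signal can be assigned to 1 gene. The Sult2a1 probe (A_55_P1952517) and the Sult2a4 probe (A_55_P1952507) aligned over 54 bases with 51 identical, and the Sult2a1 and Sult2a2 (A_55_P1952512) probes over 59 bases with 54 identical. A window of 30 bases common to these 3 probes is shown with capitals where they are not all alike.
Sult2a1: ttgttGtGtatcttgaatacctAGatGtgg
Sult2a4: ttgttCtGtatcttgaatacctAGatGtgg
Sult2a2: ttgttCtAtatcttgaatacctGAatAtgg
In this window the Sult2a1 probe differed from the Sult2a4 probe at 1 base and the Sult2a2 probe from the Sult2a4 probe at 4. The file also lists a Sult2a4 transcript for the Sult2a1 probe, a Sult2a1 transcript for the Sult2a4 probe and a Sult2a5 transcript for the Sult2a2 probe.

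The probes for Sult2a3 (A_52_P218833), Sult2a5 (A_52_P430755) and 1 of the 3 probes for Sult2a6 (A_55_P2744505) lie in homologous coding-like stretches, each with at least 1 open frame. They are shown whole, with their longest common run of 12 bases in capitals.
Sult2a3: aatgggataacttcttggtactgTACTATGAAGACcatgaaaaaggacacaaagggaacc
Sult2a5: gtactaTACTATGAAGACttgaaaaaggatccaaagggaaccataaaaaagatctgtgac
Sult2a6: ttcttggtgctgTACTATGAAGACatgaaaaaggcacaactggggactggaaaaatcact
The Sult2a3 and Sult2a6 probes of this set were identical at 43 of 49 aligned bases, and the Sult2a3 and Sult2a5 probes at 38 of 43. The file lists a Sult2a4 transcript beside Sult2a3 for the Sult2a3 probe. It lists a cDNA clone for this Sult2a6 probe.

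Sult2a6 had a cross-listed probe (A_55_P2172532), for which the file gives transcripts of Sult2a1, Sult2a5 and Sult2a6, and a probe for which it gives Sult2a6 alone (A_55_P2107225). They are shown with the Sult2a7 probe (A_52_P293682), because the 2 Sult2a6 probes gave different results and Sult2a7 was the member that did not pass. Capitals mark the longest run shared with any other member probe, which was 14, 7 and 7 bases.
Sult2a6, cross-listed: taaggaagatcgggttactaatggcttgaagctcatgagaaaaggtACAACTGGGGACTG
Sult2a6 alone: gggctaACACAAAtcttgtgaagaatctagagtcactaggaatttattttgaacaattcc
Sult2a7: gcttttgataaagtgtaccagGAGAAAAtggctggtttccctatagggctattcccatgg
The first shares its run with the Sult2a6 clone probe; the other two have only short runs in common with the family.

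On mm9, the build of the array files, all Sult2a probes lie on chromosome 7 between 14247879 and 15050573, and the Sult3a1 probes (A_51_P426513 and A_55_P2129449) on chromosome 10 at 33599244 to 33599303 and 33599125 to 33599184. Sult2a1 was probed at 14381602 to 14381661, Sult2a2 at 14364926 to 14364985 and Sult2a4 at 14495026 to 14495085. Sult2a8 (A_51_P189733) was probed at 14996296 to 14996355 and Sult2a7 at 15050514 to 15050573. The files name the gene of each probe, not its exon or untranslated region.

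Of the 11 tested member probes, 10 differed between the labelled diets in labelled males and 10 in labelled females (limma, Benjamini-Hochberg adjusted p under 0.05). In each labelled sex 9 were higher on the arrays labelled pesticide and 1, Sult2a8, was lower, while Sult2a7 did not pass. The 9 higher probes passed the filter on dim probes only through the groups labelled pesticide. Their count and their separation were thus partly set by the filter, and the shares of all probes are no like-for-like baseline. Of all 32078 tested probes, 22.2% passed in labelled males (11.6% higher, 10.7% lower) and 18.3% in labelled females (8.88% higher, 9.44% lower). The median difference over all probes was -0.03 in labelled males and -0.02 in labelled females on the log2 scale. For all 9 probes that were higher, the 6 pesticide arrays lay above the 6 control arrays in both labelled sexes, as did 5.6% of all tested probes in labelled males and 3.64% in labelled females. Only 23 probes, or 0.0717% of those tested, were higher by over 4 log2 units in both labelled sexes. Of these 23 probes, 9 were member probes, for 7 of the 16 genes so named. Sult2a6 is among the 7 only through its cross-listed and clone probes.

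**Figure D1:**
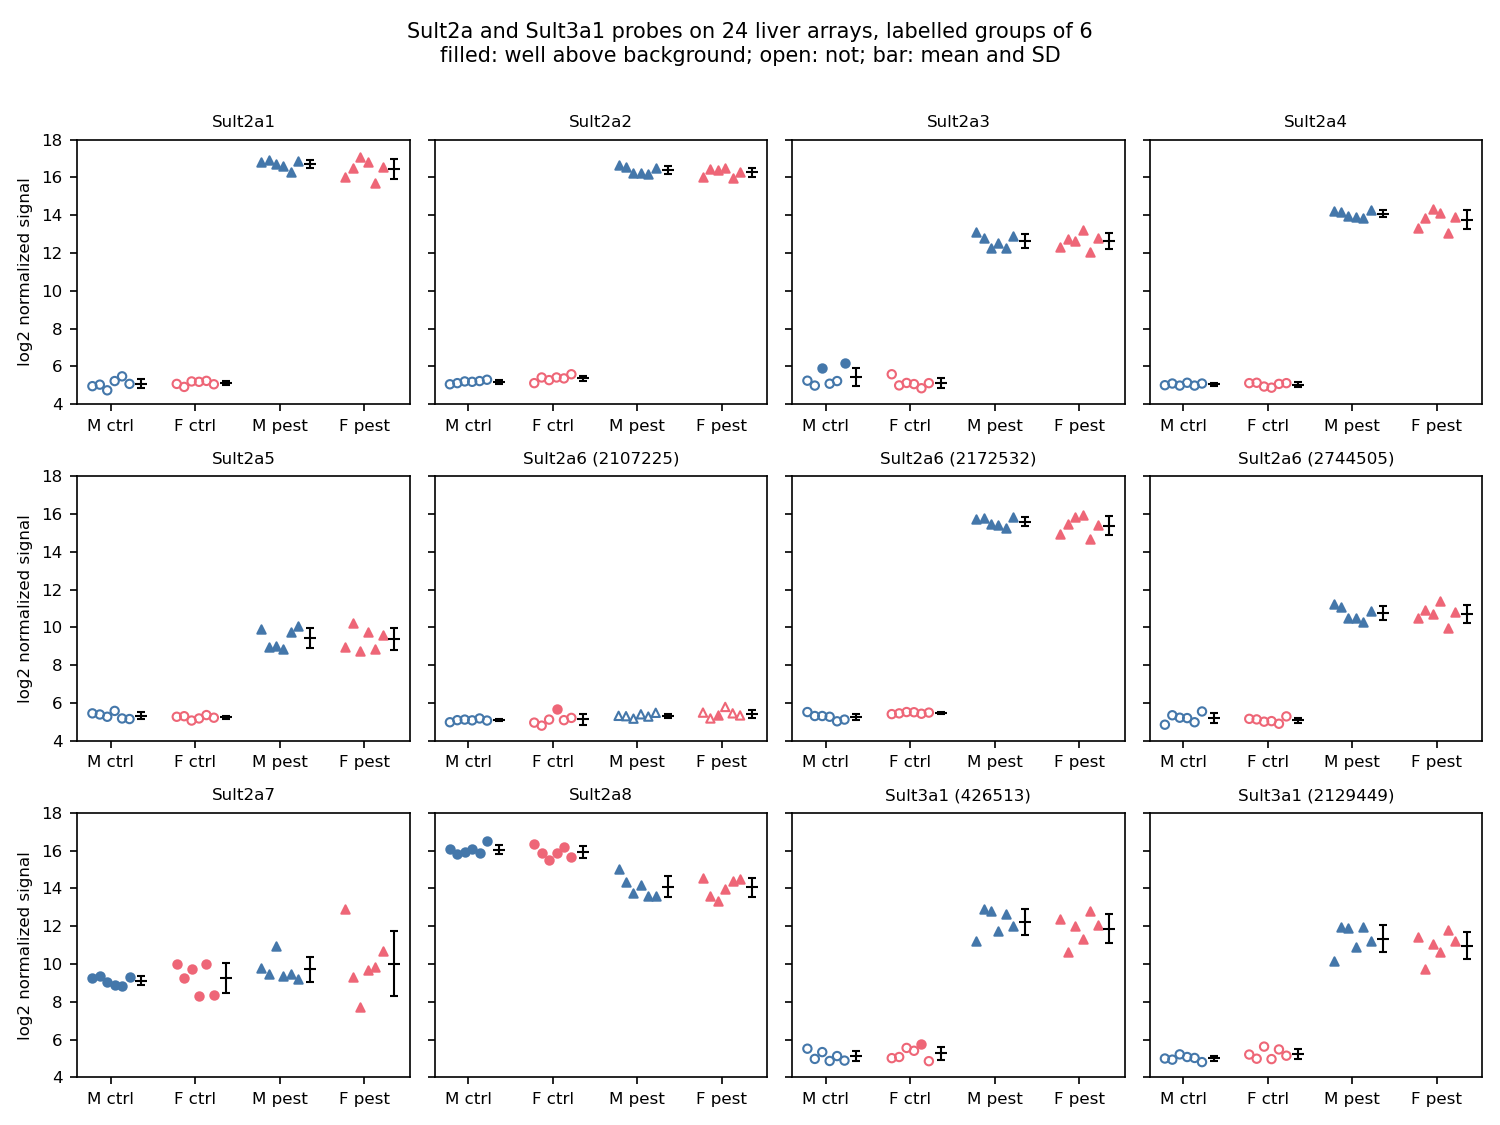
Normalized log2 signal (y axis) of the 12 member probes on each of the 24 arrays, by labelled group (M and F, sex; ctrl and pest, diet); filled symbols are well above background, open ones are not, and the bar gives the mean and SD of 6 arrays. Numbers in brackets are the digits of the probe name. 9 probes rise from the background level, Sult2a8 falls from a mean of 16.05 to 14.09 in labelled males, and Sult2a7 overlaps between all groups.

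Sult2a1, the founding hydroxysteroid sulfotransferase of the family, was well above background on 0 of 12 control arrays and on all 12 pesticide arrays. Its log2 signal ran from 4.73 to 5.47 (median 5.05) in male controls and from 4.91 to 5.23 (median 5.12) in female controls. It ran from 16.30 to 16.90 (median 16.74) in male pesticide and from 15.69 to 17.10 (median 16.55) in female pesticide arrays. The pesticide and control values lay far apart with no overlap. The difference was 11.62 (SE 0.17, adjusted p = 7.2e-25, limma) in labelled males, at least 2450-fold, and 11.34 (SE 0.17, adjusted p = 1.3e-24) in labelled females, at least 2140-fold. Such a bound sets the bright group's mean against the lowest signal that was well above background on the dim arrays, or the probe's own signal where that was higher. The bounds hold for the median signal without background correction, and the sizes depend on that choice: over the 9 higher probes, each difference was smaller after normexp correction and larger with the scanner's background-subtracted signal. Sult2a5 moved most in proportion, from 4.10 to 3.47 and 7.12 in labelled males and from 4.13 to 3.44 and 7.30 in labelled females; all 9 passed under both.

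Sult2a2 and Sult2a4, its nearest copies, had the same pattern, with 0 control arrays well above background. Sult2a2 was at 5.05 to 5.29 (median 5.19) in male controls, 5.11 to 5.58 (5.39) in female controls, 16.18 to 16.64 (16.38) in male pesticide and 15.94 to 16.49 (16.35) in female pesticide arrays. It was higher by 11.22 (SE 0.10) in labelled males, at least 2010-fold, and by 10.91 (SE 0.10) in labelled females, at least 1800-fold. Sult2a4 was at 4.98 to 5.13 (median 5.05), 4.87 to 5.13 (5.09), 13.85 to 14.26 (14.08) and 13.08 to 14.35 (13.87) in the same order of groups. The Sult2a4 difference was 9.02 (SE 0.15) in labelled males, at least 399-fold, and 8.73 (SE 0.15) in labelled females, at least 333-fold. Because these 3 probes are near-identical, part of each signal may belong to its copies; how much was not tested.

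Sult2a3 was the one of these genes with some control signal. Its probe was well above background on 2 male control arrays, replicates 3 and 6, at 5.90 and 6.17, against 4.98 to 5.24 on the other 4. It was at 4.84 to 5.58 (median 5.09) in female controls, 12.24 to 13.13 (12.65) in male pesticide and 12.04 to 13.24 (12.70) in female pesticide arrays. The groups did not overlap, and the difference was 7.20 (SE 0.21) in labelled males, with no fold given. A bound was set only where no array of the dim group was well above background, and here 2 were. The other 4 were not, so a plain fold would rest in part on background signal. In labelled females the difference was 7.52 (SE 0.21), at least 151-fold.

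Sult2a5, the member nearest to the edge of the group on its low-coordinate side, was at 5.15 to 5.58 (median 5.33) in male and 5.07 to 5.36 (5.25) in female controls. On pesticide arrays it was at 8.85 to 10.09 (9.39) in labelled males and 8.75 to 10.22 (9.30) in labelled females. These ranges were wide against those of the controls but did not reach them. The differences were 4.10 (SE 0.22, at least 15.6-fold) and 4.13 (SE 0.22, at least 15.7-fold).

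The 3 Sult2a6 probes did not give 1 answer. The cross-listed probe was higher by 10.32 (SE 0.15, at least 1120-fold) in labelled males and 9.92 (SE 0.15, at least 957-fold) in labelled females, and the clone probe by 5.56 (SE 0.18, at least 37.9-fold) and 5.62 (SE 0.18, at least 40.1-fold). The probe listed for Sult2a6 alone stayed near background in all groups, with means of 5.08 ± 0.07 (SD, n = 6) in male controls, 5.14 ± 0.30 in female controls, 5.33 ± 0.11 in male pesticide and 5.43 ± 0.21 in female pesticide. It was well above background on 1 female control array, replicate 4, and 1 female pesticide array, replicate 3, and was not tested. A rise of Sult2a6 itself, apart from its copies, was thus not measured by a probe of its own.

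Sult3a1, on another chromosome, had 2 probes, both higher on pesticide arrays. The first (A_51_P426513) was at 4.87 to 5.52 (median 5.06) in male controls, 4.86 to 5.77 (5.25) in female controls, 11.22 to 12.91 (12.33) in male pesticide and 10.66 to 12.82 (12.03) in female pesticide arrays. It was well above background on 1 control array, female replicate 5. The differences were 7.10 (SE 0.30, at least 112-fold) in labelled males and 6.59 (SE 0.30) in labelled females. No bound was set for the latter because 1 of its 6 control arrays was well above background. No plain fold is given because the other 5 were not. The second probe gave 6.33 (SE 0.29, at least 60.6-fold) and 5.74 (SE 0.29, at least 45.5-fold). For this second probe the file lists a Sult3a1 transcript alone, but for the first it lists no transcript of a reference gene. Neither probe was compared in sequence with Sult3a2, also on chromosome 10.

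Sult2a8, described as a bile acid sulfotransferase, went the other way and was well above background on all 24 arrays. It was at 15.84 to 16.50 (median 15.99) in male controls, 15.51 to 16.35 (15.88) in female controls, 13.60 to 15.02 (13.98) in male pesticide and 13.34 to 14.54 (14.19) in female pesticide arrays. All 6 pesticide arrays lay below all 6 control arrays in both labelled sexes, as did 4.61% and 4.18% of all tested probes. It fell by 1.96 (SE 0.23, adjusted p = 1e-06, limma; 3.9-fold) in labelled males and fell by 1.86 (SE 0.23, adjusted p = 2.8e-06; 3.62-fold) in labelled females.

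Sult2a7 was well above background on all 24 arrays but overlapped between all groups. Its lowest, median and highest values were 8.84, 9.14 and 9.38 in male controls, 9.19, 9.48 and 10.96 in male pesticide and 7.70, 9.75 and 12.90 in female pesticide arrays. In female controls the lowest was 8.30 and the median 9.49 (mean 9.27 ± 0.78, SD, n = 6). The spread was greatest in the labelled female pesticide group, where replicate 1 was at 12.90 and replicate 3 at 7.70 (SD 1.72, against 0.23 in male controls). The difference was 0.59 (95% confidence interval -0.51 to 1.69, adjusted p = 0.46, limma) in labelled males and 0.74 (-0.36 to 1.84, adjusted p = 0.36) in labelled females. Both intervals include 0 and reach up to a log2 difference of 1.69 and 1.84.

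**Figure D2:**
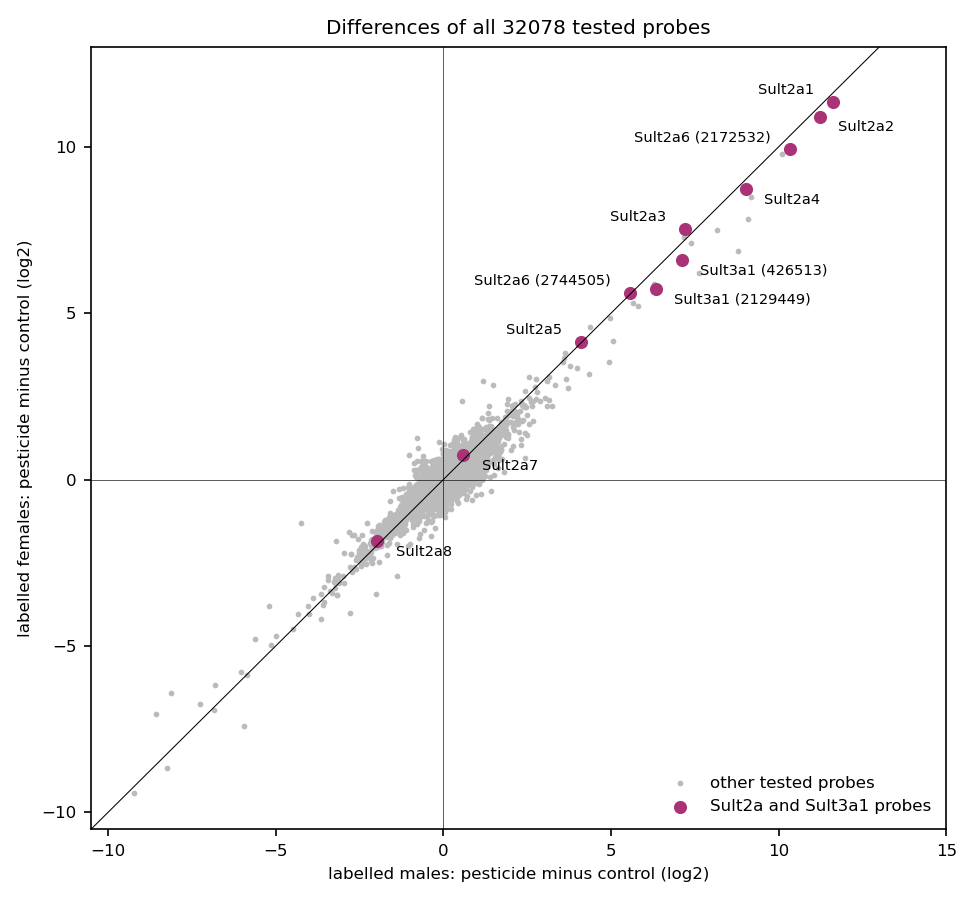
Log2 difference, pesticide minus control, in labelled males (x axis) against labelled females (y axis) for the 32078 tested probes (grey) and the 11 tested member probes (purple); the line marks equal values. The members lie along the line, 9 of them between 4.10 and 11.62 in labelled males, with Sult2a7 near the origin and Sult2a8 at -1.96.

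Both comparisons gave near-equal values. The difference between the 2 diet effects passed for 0 of 11 member probes and for 0% of the 32078 probes (limma; unadjusted p under 0.05 for 1 member, Sult2a2, at -0.31, and for 1265 of all probes). Labelled female against labelled male passed for 0 members within the control diet and 0 within the pesticide diet, and for 0% of all probes in each. At an unadjusted p under 0.05, 0 members passed in either, against 1792 and 1311 of all probes. The 12 arrays whose sex-linked transcripts match their label were also compared alone, 6 female pesticide against 6 male control. They are part of the same 24 arrays, and labelled sex and diet both differ between them, so this is no independent check. In it 10 of 11 member probes passed, where 20% of all probes did. The 9 higher probes had passed the filter on dim probes only through groups labelled pesticide, so this share is no like-for-like baseline. Sult2a1 was then higher by 11.37 (SE 0.21), Sult3a1 by 6.75 (SE 0.29) on its first probe, and Sult2a8 was at -1.99 (SE 0.20); Sult2a7 was at 0.89 (adjusted p = 0.34, limma). Within slides, with 2 arrays per group, Sult2a1 differed by 11.33 to 11.86 in labelled males and by 10.99 to 11.76 in labelled females. Sult2a8 was lower on every slide, but slide 1 alone gave -1.28 with an adjusted p of 0.11 (limma) in labelled males.

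The genes around the Sult2a group had smaller differences. Within 1 Mb to either side, 40 other probes were tested, and 12 passed in labelled males and 12 in labelled females. Of all tested probes 22.2% and 18.3% passed, and of all genes by 1 brightest probe 24.9% and 20.3%. Whether the neighbours passed more often than that was not tested. Of 19 named neighbour genes tested, 4 were higher and 2 lower in labelled males, and 3 higher and 2 lower in labelled females. The largest of these was Gm38596, at -1.39 (SE 0.21) and -1.53 (SE 0.21). Gm38947 (0.42 and 0.47), Mzf1 (0.28 without passing, and 0.42), Zbtb45 (0.42, and 0.19 without passing), Zswim9 (0.30, and 0.23 without passing) and Zfp329 (-0.34 and -0.39) had small differences in labelled males and females. The higher of these named neighbours differed by at most 0.47, against 4.10 or more for the member probes that were higher.

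A probe with no gene name in the reference, A_55_P1989248 at chromosome 7, 14432715 to 14432774 on mm9, lies inside the group, and the file describes it as a predicted pseudogene. It was named after its values were seen. It was at 5.28 to 5.52 in male controls, 5.34 to 6.01 in female controls, with 1 array well above background, 15.28 to 15.65 in male pesticide and 14.85 to 15.77 in female pesticide arrays. The difference was 10.10 (SE 0.13) in labelled males and 9.77 (SE 0.13) in labelled females. The sequence of this probe was not compared with those of the member probes. Part of its signal may belong to the Sult2a genes, and how much was not tested.

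**Figure D3:**
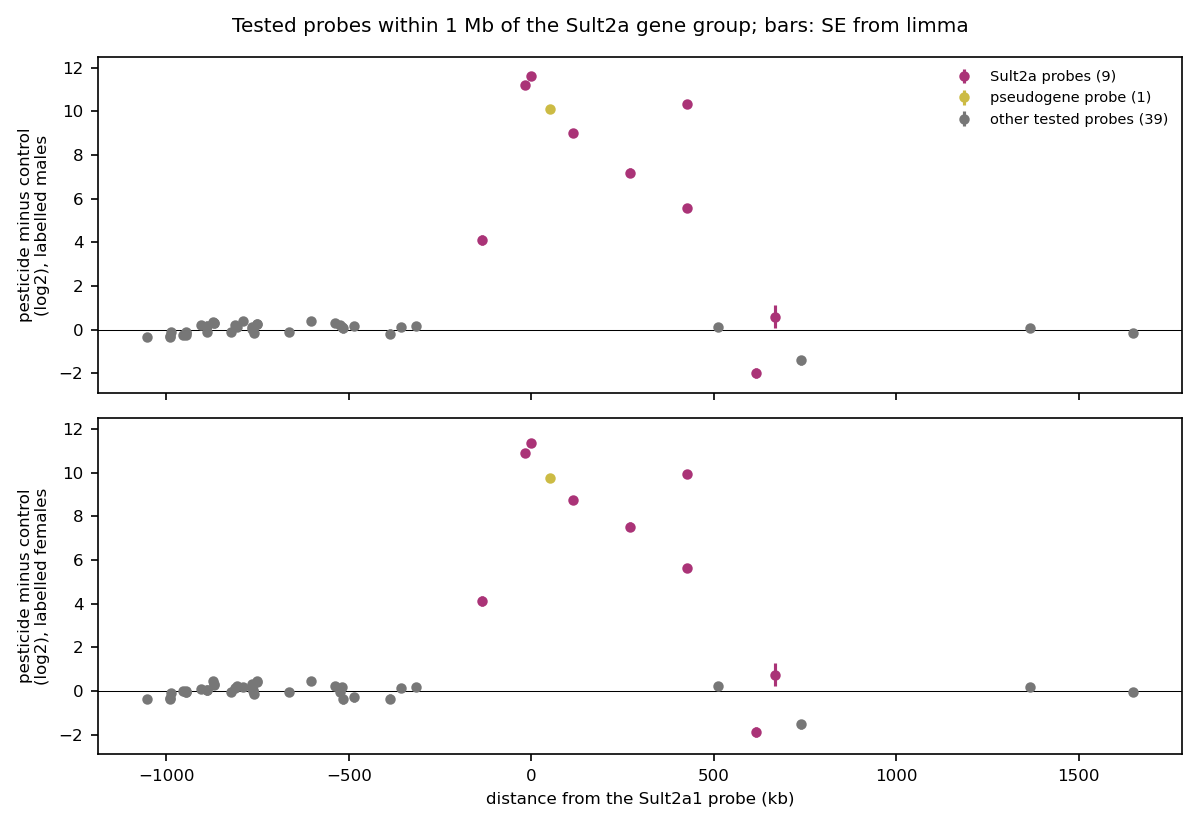
Log2 difference, pesticide minus control, of every tested probe within 1 Mb of the Sult2a group (y axis; bars, SE from limma) against distance from the Sult2a1 probe in kb (x axis), in labelled males (top) and labelled females (bottom). The high Sult2a probes and the pseudogene probe stand between 4.10 and 11.62, the Sult2a8 probe and Gm38596 lie below 0, Sult2a7 is at 0.59 and 0.74, and the other probes sit within 0.5 of 0.

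The upstream sequence was compared for the members with an entry in the RefSeq promoter table of build GRCm38.p6 (6 of 9 genes; Sult2a8 has 2 entries). Entries run from 250 bases before to 50 after the gene's start. Among Sult2a3, Sult2a4, Sult2a5 and Sult2a6, all higher here on at least 1 probe, the promoters aligned over 221 to 283 bases with 79.9% to 92.2% identity. Sult2a6 was higher only on its cross-listed and clone probes, while the probe listed for it alone stayed near background. The first Sult2a8 entry aligned to Sult2a6 over 69 bases, at 63.8%. The first 250 bases of Sult2a3, Sult2a4 and Sult2a8 are shown because Sult2a8 went against the others, all on the minus strand, with GTTAAT and its reverse complement ATTAAC, part of the site of the liver factor HNF1, in capitals.
Sult2a3, chr7:14123049-14123298: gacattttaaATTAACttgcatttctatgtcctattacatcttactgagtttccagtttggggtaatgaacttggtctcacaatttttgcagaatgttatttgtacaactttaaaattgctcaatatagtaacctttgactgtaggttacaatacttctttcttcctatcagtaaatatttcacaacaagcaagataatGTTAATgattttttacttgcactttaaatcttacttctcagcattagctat
Sult2a4, chr7:13989589-13989838: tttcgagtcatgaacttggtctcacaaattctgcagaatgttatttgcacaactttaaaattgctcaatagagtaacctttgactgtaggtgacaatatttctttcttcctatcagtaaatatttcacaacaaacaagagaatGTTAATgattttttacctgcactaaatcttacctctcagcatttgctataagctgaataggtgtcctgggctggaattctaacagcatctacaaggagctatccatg
Sult2a8, chr7:14446588-14446837: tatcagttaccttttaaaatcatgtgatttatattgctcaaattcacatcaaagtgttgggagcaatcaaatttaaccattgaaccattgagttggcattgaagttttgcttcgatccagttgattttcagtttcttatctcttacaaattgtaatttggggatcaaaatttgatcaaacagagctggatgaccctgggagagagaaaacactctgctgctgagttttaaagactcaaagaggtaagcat
GTTAAT was found on either strand in 4 of the 7 entries, those of Sult2a3, Sult2a4, Sult2a5 and Sult2a6, against 7.1% of the 32851 promoters in the table. These 4 entries are alike in sequence, so their matches are not independent and the share shows no enrichment. GTTAAT was found in neither Sult2a8 entry nor in that of Sult3a1. TTCNNNGAA, the STAT5 motif, was in 1 entry, that of Sult3a1, against 8.3% of all promoters. AGGTCA, the core of many nuclear receptor sites, was in 1, the second Sult2a8 entry, against 16.3%; TATAAA was in 4, against 13.6%. Both strands were searched. A match in these letters describes the sequence and shows no binding.

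Among the pesticide arrays the members rose and fell together only in part. Deviations from the group mean were compared over the 12 arrays labelled pesticide for 55 pairs of the 11 probes (permutation test within groups, two-sided, Benjamini-Hochberg over the 55). 16 pairs passed, 15 of them all the pairs among the 6 probes of Sult2a1, Sult2a2, Sult2a3, Sult2a4 and Sult2a6 that were tested. Pearson's r of the 16 pairs ran from 0.74 to 0.98. Sult2a1 and Sult2a4 had r = 0.98 (rho = 0.95, permutation p = 1e-05, the smallest 100000 resamples can give; adjusted p = 0.00027), and r = 0.95 without the 2 arrays farthest from the median. Sult2a2 and Sult2a3 had r = 0.94 (rho = 0.83, permutation p = 9e-05, adjusted p = 0.00082), and 0.90 without 2 arrays. The 2 Sult3a1 probes had r = 0.98 (rho = 0.97, adjusted p = 0.00027 by permutation). The pairs share arrays, and the near-identical probes share sequence.

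Between Sult3a1 and the Sult2a probes no pair passed. With the first Sult3a1 probe, r was -0.70 for Sult2a3 (rho = -0.64; permutation p = 0.021, adjusted p = 0.068) and -0.66 for Sult2a2 (rho = -0.71; permutation p = 0.031, adjusted p = 0.08), neither of which passed. Sult2a7 and Sult2a8 gave r = 0.52 (adjusted p = 0.17 by permutation) but rho = 0.76 (adjusted p = 0.041 by permutation), and without the 2 arrays farthest from the median of Sult2a7, r = 0.22 and rho = 0.61. Among the genes whose deviations followed the mean of the 9 Sult2a probes most closely, of 28088 probes and over the same 12 arrays, were Baat, which conjugates bile acids (r = 0.89, rho = 0.94, and 0.81 without 2 arrays), Ces1d (0.89, 0.82, 0.79), Ephx2 (0.86, 0.81, 0.85) and Scarna6 (0.86, 0.92, 0.79). They were picked for their high values, so the values describe these arrays and have no test. That mean also includes Sult2a7 and Sult2a8, and Sult2a7 weighs on it. On labelled female pesticide replicate 1 the mean deviation was 0.10, with Sult2a7 at 12.90 against its group mean of 10.01. The Sult2a probes that were higher on pesticide arrays all lay below their group means there. On replicate 3 the mean deviation was -0.20, with Sult2a7 at 7.70, while those probes went both ways. Whether Baat, Ces1d, Ephx2 and Scarna6 follow those probes alone was not tested.

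**Figure D4:**
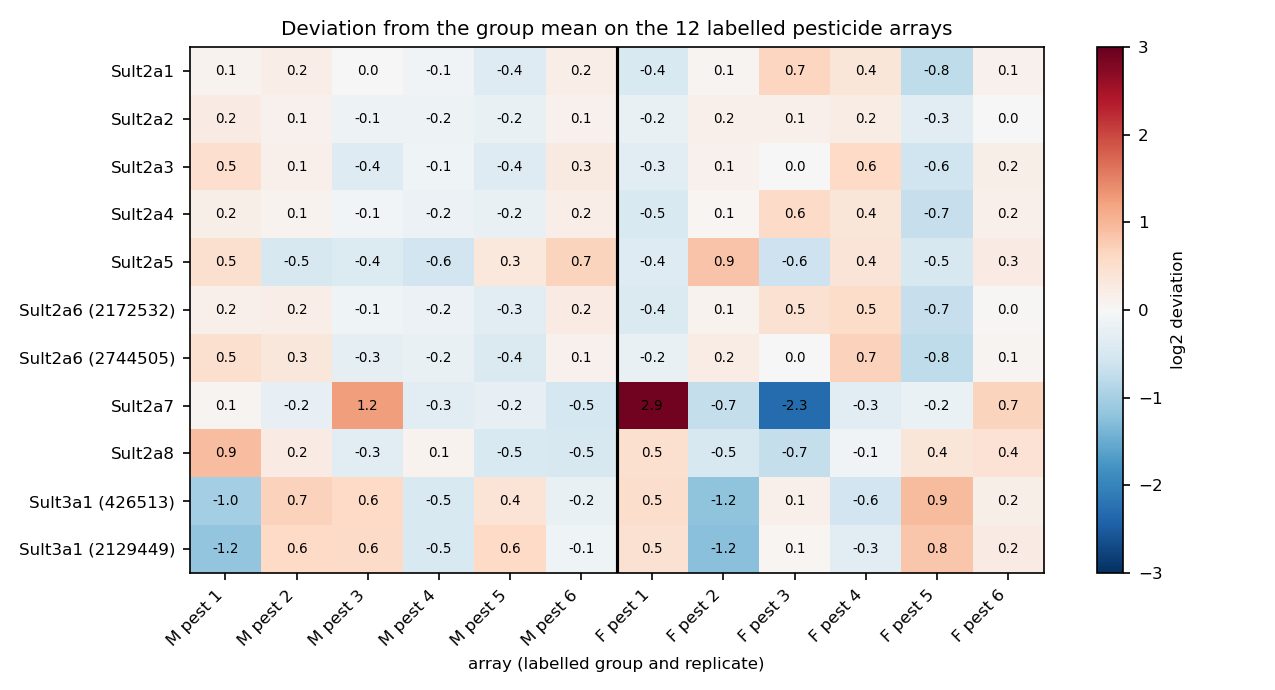
Deviation of each tested member probe from its group mean (colour and printed value, log2) on the 12 arrays labelled pesticide (x axis, M and F with the replicate number; digits in brackets are from the probe name). The Sult2a1 to Sult2a4 and Sult2a6 rows change sign together on most arrays, Sult3a1 runs apart from them, and Sult2a7 deviates most, on labelled female pesticide replicates 1 and 3.

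The rest of the sulfation pathway had smaller measured differences than the member probes that were higher. By 1 brightest probe per gene, 24.9% of all 16850 genes passed in labelled males (14% higher, 10.9% lower) and 20.3% in labelled females (10.3% higher, 10.1% lower), with median differences of -0.02 and -0.01. Among 12 tested other sulfotransferases, 6 were higher and 1 lower in each labelled sex, with medians of 0.46 in labelled males and 0.36 in labelled females. Sult1c2 was higher by 1.80 (SE 0.24) and 1.40 (SE 0.24), Sult1a1, which sulfates phenols, by 0.66 and 0.74 (SE 0.11), and Sult5a1 was lower, at -1.33 and -1.09 (SE 0.34). Sult3a2, beside Sult3a1 on chromosome 10, was higher by 1.16 and 1.25 (SE 0.23), with 0 control arrays well above background. In each labelled sex 5 of 6 pesticide arrays were, at means of only 6.26 and 6.33, so these sizes rest in part on background signal. Sult1b1, at -0.32 and -0.33, did not pass.

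Of 15 genes for PAPS supply and desulfation, 2 were higher and 2 lower in labelled males, and 1 was higher and 5 lower in labelled females (medians -0.11 and -0.14). Papss2, which makes PAPS, was higher by 0.66 and 0.73 (SE 0.13). Arsa, a sulfatase of the lysosome, was lower, at -1.25 and -1.52 (SE 0.14). Papss1 was at -0.14 in labelled males without passing and -0.37 (SE 0.10) in labelled females. With the median or processed signal scaled to the 75th percentile, 7 of the 15 passed in labelled males.

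Of 25 tested regulators of Sult2a transcription, 5 were higher and 3 lower in labelled males, and 6 higher and 2 lower in labelled females (medians -0.12 and 0.05). Cux2, a repressor known for female-biased expression in mouse liver, was higher by 4.36 and 4.58 (SE 0.17), with 2 and 1 of the 6 control arrays well above background. Esr1, the estrogen receptor, was higher by 1.11 and 1.15 (SE 0.14), and Nr1i3, the xenobiotic sensor CAR, by 0.75 and 0.74 (SE 0.13). Nr1h4, the bile acid receptor FXR, was lower, at -0.42 and -0.38 (SE 0.08). Hnf4a was at -0.13 and -0.02 and did not pass. In labelled females the count of 8 fell to 5 without female control replicate 6, without female pesticide replicate 4 or without female pesticide replicate 5.

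Of 24 enzymes and transporters that share substrates with the members, 6 were higher and 7 lower in labelled males, and 5 higher and 7 lower in labelled females (medians -0.02 and 0.06). Slco1a1, an uptake carrier of steroid sulfates and bile acids, was well above background on all 6 control arrays and on 0 pesticide arrays of each labelled sex, which bounds the decrease as at least 141-fold in labelled males and at least 91-fold in labelled females. Hsd3b5, a steroid dehydrogenase, was at -8.12 and -6.40 (SE 0.42); only 2 and 3 of the 6 pesticide arrays were well above background, so these sizes rest in part on background signal. Cyp7b1, an oxysterol hydroxylase, was at -3.43 and -3.03 (SE 0.25). Abcc4, which exports sulfated bile acids, was higher by 2.07 and 2.23 (SE 0.20), and Slco1a4 by 2.29 and 2.06 (SE 0.25). Slc10a1, the main bile acid uptake carrier, was at 0.05 and 0.02 and did not pass.

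Marker genes of other liver cells also differed between the labelled diets. For Kupffer cells and macrophages, 9 of 10 marker genes rose in each labelled sex (medians 1.37 and 1.20), with array means of 9.98 to 11.74 in male controls, 9.77 to 12.02 in female controls, 11.32 to 12.18 in male pesticide and 10.90 to 12.55 in female pesticide. Of 8 endothelial markers 7 and 5 were higher, of 8 stellate cell markers 7 and 3, and of 9 T, B and NK cell markers 4 and 0, in labelled males and females (limma; for the last, 1 had an unadjusted p under 0.05). Of 6 bile duct markers 1 and 0 were higher. Of 3 tested adipocyte markers 1 was lower in each labelled sex, and of 3 adrenal cortex markers 2 and 1 were lower. Of 2 intestine markers 1 was lower in each, and of 2 exocrine pancreas markers 0 passed. Of 12 hepatocyte markers 0 passed in labelled males (2 at an unadjusted p under 0.05) and 3 were higher in labelled females. Of all genes by 1 brightest probe, 14% and 10.3% were higher, and 10.9% and 10.1% lower. In bulk tissue, a change in the number of cells of a type and a change in RNA per cell cannot be told apart. The part of the cell mixture in the member values was not tested.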

How the data were processed

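Liver RNA from 24 samples was read on Agilent one-colour arrays. Per the file headers and the submitters' processing notes, the deposited scanner files hold spot fluorescence intensity extracted with Agilent Feature Extraction 10.10.1.1. The deposited value table holds log2 values, and its 24 columns each matched their own array; its use is an alternative here. The notes also name limma.

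Median signals were averaged over the spots of a probe (control and non-uniform outlier spots left out), taken as log2 and quantile normalized over 56605 probes. A probe was tested when marked well above background on at least 4 of 6 arrays of at least 1 group. The model, limma 3.58.1 under R 4.3.3, had a mean for each labelled group and used the 24 arrays together; tests were two-sided, with Benjamini-Hochberg adjustment over 32078 probes, passing under 0.05. The 3 slides carried 2 arrays of each group. The procedure was checked on simulated data. Means are given with the SD, differences with the SE. The number of arrays limits the precision.

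Every member probe is named; of each pathway list up to 6 passing genes with the smallest p and 2 not passing with the highest level could be named, the neighbours that passed, and the 5 genes most like the members; a few of these are not reported here. Members and lists were chosen with earlier results of these data known. Same-numbered arrays of different groups had a median correlation of deviations of 0.08 (-0.12 to 0.34). The labels state no pairing, and replicate numbers were not taken as pairs. Pairing is not excluded by this, and a fit with the replicate number as a block is given at the end. Background correction, scaling, filter, slide, replicate block, spread model, value table and single arrays were varied.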

Additional observations from a re-analysis of the deposited data

Results flagged for a closer look

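Of 52 combinations of probe and labelled group examined (12 member probes and the pseudogene probe, 4 groups each), 1 held an array far from the rest. In labelled male pesticide, replicate 3 had a Sult2a7 log2 signal of 10.96, against 9.80 for the next array; this gap was 0.657 of the group's range, over Dixon's 95% critical value for 6 arrays. Chance alone sets apart about 1 group in 20 in this way. Without this array the Sult2a7 difference in labelled males was 0.34 and did not pass.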

How the results depend on the processing

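Of the 11 member probes, 10 passed in labelled females under all 13 alternatives and with each array left out (10 to 10), and 9 or 10 in labelled males (10 to 10 with arrays left out); 9 came from slide 1 alone, where Sult2a8 was at -1.28 (adjusted p = 0.11, limma). No member passed in the comparisons of labelled sexes or of diet effects under any alternative. Sult2a1 in labelled males ranged from 10.71 (normexp background correction) to 14.44 (processed signal scaled to the 75th percentile). Sult2a7 never passed; in labelled females it was -0.33 on slide 2 alone, the reverse of the other values. The added comparison of the 12 label-matching arrays was chosen after the data were seen and reuses arrays of the main comparisons. It gave the same calls but is no independent check.

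Among the gene lists, PAPS genes in labelled males numbered 7 under both 75th-percentile scalings, against 4, and regulators in labelled females 5 with no filter on dim probes, against 8. Slides alone, with 2 arrays a group, gave fewer passing genes. Other sulfotransferases numbered 1, 0 and 0 on slides 1, 2 and 3 in labelled males and 2, 2 and 1 in labelled females, PAPS genes 1, 0 and 1, and 1, 1 and 1, and regulators 1, 3 and 2, and 1, 3 and 3. Substrate-sharing genes numbered 7, 6 and 6, and 6, 6 and 5, and neighbours 0, 1 and 1, and 1, 0 and 1. With single arrays left out, the counts were, in labelled males and females, 6 to 9 and 6 to 8 for other sulfotransferases, 4 to 6 and 5 to 6 for PAPS genes, 6 to 9 and 5 to 10 for regulators, 11 to 13 and 11 to 13 for substrate-sharing genes, and 4 to 7 and 4 to 7 for neighbours. The slide counts rest on only 2 arrays a group, and the cause of these changes in count was not tested.

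With the replicate number as a block (replicate block), 10 member probes passed in each labelled sex, as without it, and 14 of 24 arrays correlated best, among the 18 arrays of other groups, with 1 of the 3 that carry their own number. Same-numbered arrays had a median correlation of deviations of 0.08, against -0.01 for other numbers on the same slide and -0.03 on other slides. This hints that the numbers may pair samples, but not every pair was over 0.1 and the labels state no pairing. Signals at background limit Sult2a6 and the control values of the members that were higher to bounds.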
